A study of Mus musculus with 12 samples.

Results

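The collagen genes of mouse skin were examined in an experiment on topical baricitinib, an inhibitor of the kinases JAK1 and JAK2. The members were all probe sets whose only annotated gene symbol is Col, a number, a and a number, without Col17a1. Where a gene had several, the brightest on average over the 12 arrays was used. This gave 41 genes, carried by 81 probe sets, of 18193 genes with a probe set of their own and 45037 probe sets tested. All mice were C3H/HeJ mice that had received grafts of alopecic C3H/HeJ skin, a model of alopecia areata, and had been aged until hair loss was nearly complete. After disease was established, 3 mice were given baricitinib and 3 were given vehicle control on the skin each day. Skin of each mouse was taken at week 0 and at week 12, so that there were 4 groups of 3 arrays. The labels do not say whether the skin came from the graft, and the ages and sexes of the mice are not given there.

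Collagens are triple helical proteins of the extracellular matrix. Fibrillar collagens, made in the dermis mainly by fibroblasts, form the banded fibrils that give skin its strength. Type IV collagens form the sheet-like network of basement membranes under the epidermis and around hair follicles, vessels and nerves. Other types lie on the surface of fibrils, form beaded microfilaments or short-chain networks, or cross the cell membrane. The growing hair follicle rebuilds its own basement membrane and connective tissue sheath with each hair cycle.

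By these classes there were 11 fibrillar collagens, 6 type IV collagens, 3 other collagens of the basement membrane zone, 5 type VI collagens, 9 fibril-associated collagens, 3 short-chain collagens, 3 transmembrane collagens and 1 other, Col26a1. Values were log2 signals normalised by RMA, and a difference of 1 on this scale is a doubling of signal. Probes differ in brightness, so levels were compared between groups and not between genes. Of the 41 genes, 23 were above the median of their array in all 12 arrays and 7 were above it in no array. The 7 were Col2a1, Col6a5, Col9a2, Col10a1, Col11a2, Col22a1 and Col26a1. All 41 entered the test, with no filter on dim probe sets.

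The arrays carried the markers of skin. Lor, a cornified envelope protein of the epidermis, lay between 12.49 and 13.52 in the 12 arrays, and Dpt, a dermal matrix protein of fibroblasts, lay between 9.74 and 12.34. The arrays differed in the log2 signal at the 3' end of Actb and Gapdh over that at the 5' end, an index of RNA integrity that is higher where RNA is less intact. This index was 1.27 and 1.31 in replicates 2 and 3 of baricitinib week 12 and 1.23 in replicate 1 of vehicle week 0, against 2.55 to 4.10 in the other 9 arrays. According to the methods, baricitinib samples of this experiment, from baseline and from the end of treatment, failed quality control and were left out. So was a control sample at baseline, whose experiment is not named there. The baricitinib groups are those behind all the calls given here. Whether any of the failed samples is among the 12 arrays is not stated in the sources used here. The 2 arrays with the lowest mean correlation with the others were replicate 2 of baricitinib week 0, at 0.941, and replicate 1 of baricitinib week 12, at 0.946. In skin taken whole, fewer cells of a type and less RNA per cell cannot be told apart.

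The first comparison asked which collagens differed in skin after 12 weeks of baricitinib. In the limma fit, 3 of the 41 genes passed an adjusted p of 0.05, where 1.24% of all probe sets tested passed. Col8a2 was higher, and Col11a1 and Col12a1 were lower. Over all probe sets tested, 0.362% were called higher and 0.875% were called lower. At an unadjusted p under 0.05 there were 11 collagen genes, 4 higher and 7 lower, beside 12.3% of all probe sets. The groups did not overlap for 10 of the 41 genes, which is 24.4%, beside 15.9% of all probe sets. In a fit of just the 2 groups, none of the 3 calls was made (limma adjusted p = 0.106 for Col8a2, 0.110 for Col11a1 and 0.107 for Col12a1). Without the 2 arrays of lowest correlation, Col11a1 and Col12a1 were not called (0.0570 and 0.0590). In a fit that took this integrity index as covariate 4 genes were called, Col8a2, Col20a1 and Col23a1 higher and Col12a1 lower.

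Col8a2 encodes the alpha 2 chain of type VIII collagen, a short-chain network collagen made by endothelial and other cells. Its values were 5.95, 4.74 and 5.26 in replicates 1, 2 and 3 at week 0 and 7.26, 7.61 and 7.02 in the same mice after baricitinib. The vehicle mice were at 5.57, 6.12 and 6.30 at week 0 and at 5.68, 5.88 and 5.53 at week 12. All 3 baricitinib arrays at week 12 therefore lay above each of the other 9 arrays. The log2 difference was 1.98 ± 0.32 (SE, n = 3 against 3 arrays of the same 3 mice, in the fit with no block), a 3.95-fold higher signal, with a limma adjusted p of 0.0163. Its only probe set carries this result. The call was lost without replicate 3 of baricitinib week 0 (adjusted p = 0.0818) or replicate 2 of baricitinib week 12 (adjusted p = 0.0776). With each mouse as a fixed replicate block its adjusted p was 0.0692.

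The 12 endothelial marker genes were read beside Col8a2. Their median log2 difference was 0.96 after baricitinib, 11 of 12 were above 0, and 1 of them was called, Cldn5, a tight junction protein (log2 difference 2.34, limma adjusted p = 0.0370). The mean deviation of these markers from their own 12-array means was -0.71 to -0.10 at baricitinib week 0 and 0.48 to 0.83 at week 12. In vehicle skin it was -0.26 to -0.07 at week 0 and -0.19 to 0.16 at week 12. All 12 endothelial markers had a probe set, but no call of presence was made. Tek, the brightest, had a mean of 8.11. The part of these cells in the result for Col8a2 was not tested.

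The other short-chain collagens did not pass. Col8a1, which encodes the partner chain of Col8a2 in type VIII collagen, had a log2 difference of -0.78 ± 0.24 (SE, n = 3 against 3, limma adjusted p = 0.164). Its values were 6.25, 6.99 and 6.42 at week 0 and 5.56, 5.92 and 5.84 after baricitinib, so the groups did not overlap and ran in the direction opposite to Col8a2. Col10a1, the collagen of hypertrophic cartilage, was below the array median throughout and had a difference of -0.07.

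Col11a1 encodes the alpha 1 chain of type XI collagen, a minor fibrillar collagen that sets fibril diameter and is best known from cartilage. It was 7.99, 6.01 and 5.94 at week 0 and 4.04, 3.50 and 2.99 after baricitinib. In vehicle skin it was 5.40, 5.08 and 6.34 at week 0 and 5.50, 5.37 and 7.43 at week 12. The 3 baricitinib arrays at week 12 were below all other arrays, and all 3 were under the median of their array, so the size of the difference is less certain than its direction. The log2 difference was -3.14 ± 0.65 (SE, n = 3 against 3, limma adjusted p = 0.0422). A second probe set of the gene had a difference of -3.29 and an adjusted p of 0.0550. The call also stood with the fixed replicate block. It was lost without any of replicates 1, 2 and 3 of baricitinib week 0 (adjusted p = 0.122, 0.0681 and 0.0953) and without replicate 2 or 3 of baricitinib week 12 (0.144 and 0.175). It was lost too without replicate 2 of vehicle week 0 (0.0675), without replicate 1 or 2 of vehicle week 12 (0.0578 and 0.0605), and in a fit with the 3' to 5' index as covariate (0.0541).

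Markers of cartilage and of the dermal papilla, the cluster of mesenchymal cells at the base of the follicle, were read beside Col11a1. Of the 8 cartilage markers, 0 passed in limma and 2 were lower at an unadjusted p under 0.05, with a median log2 difference of -0.22. Their mean deviation was -0.04 to 0.61 at week 0 and -0.31 to -0.13 after baricitinib. In vehicle skin it was -0.03 to 0.04 at week 0 and -0.09 to -0.04 at week 12. Of the 8 dermal papilla markers, 3 were above 0 and 1 was called, Corin, a serine protease of the papilla, with a log2 difference of -3.68 (limma adjusted p = 0.00280). At an unadjusted p under 0.05, 2 papilla markers were higher and 4 were lower. The differences of the list ran from -3.68 to 1.25, so its markers did not share a direction. The mean deviation of the papilla markers was 0.23 to 0.66 at week 0 and -0.53 to -0.02 at week 12 with baricitinib. With vehicle it was -0.45 to 0.36 and then -0.50 to 0.11. Keratins and regulators of the hair shaft and inner root sheath were called lower in 8 of 11 measured genes, with a median log2 difference of -4.66. Their mean deviation was 1.04 to 2.36 at week 0 and -3.81 to -2.08 after baricitinib. In vehicle skin it was -1.22 to 2.17 at week 0, a wide spread, and 0.33 to 0.51 at week 12. Before treatment all 11 were higher in baricitinib than in vehicle mice, with a median log2 difference of 0.90 and 0 called. Krt73, an inner root sheath keratin, was 11.60, 10.57 and 11.66 at week 0 and 6.09, 6.08 and 4.46 at week 12. The part of follicle cells in the difference of Col11a1 was not tested.

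Col12a1 encodes type XII collagen, a fibril-associated collagen that bridges fibrils in tissues under tension. Its values were 7.80, 7.75 and 7.80 at week 0 and 6.37, 6.60 and 5.82 after baricitinib. The vehicle mice were at 8.47, 7.53 and 7.97 at week 0 and at 7.27, 6.93 and 7.43 at week 12. Levels were thus lower at week 12 in all 6 mice. The log2 difference with baricitinib was -1.52 ± 0.28 (SE, n = 3 against 3, limma adjusted p = 0.0290), and that with vehicle was -0.78 ± 0.28 (adjusted p = 1.00), with no call for the difference between the 2 changes (limma adjusted p = 0.862). The other 3 probe sets of the gene had differences of -0.78, -0.45 and -0.11 with baricitinib and were not called, and their mean levels were 4.74, 2.76 and 2.49, below the median of most arrays. The mean of its 4 probe sets gave -0.71 (adjusted p = 0.144). The call was lost with the fixed replicate block (adjusted p = 0.0751), and without any of replicates 1, 2 and 3 of baricitinib week 0 (0.0908, 0.0668 and 0.119) or replicate 2 or 3 of baricitinib week 12 (0.0674 and 0.125).

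**Figure D1:**
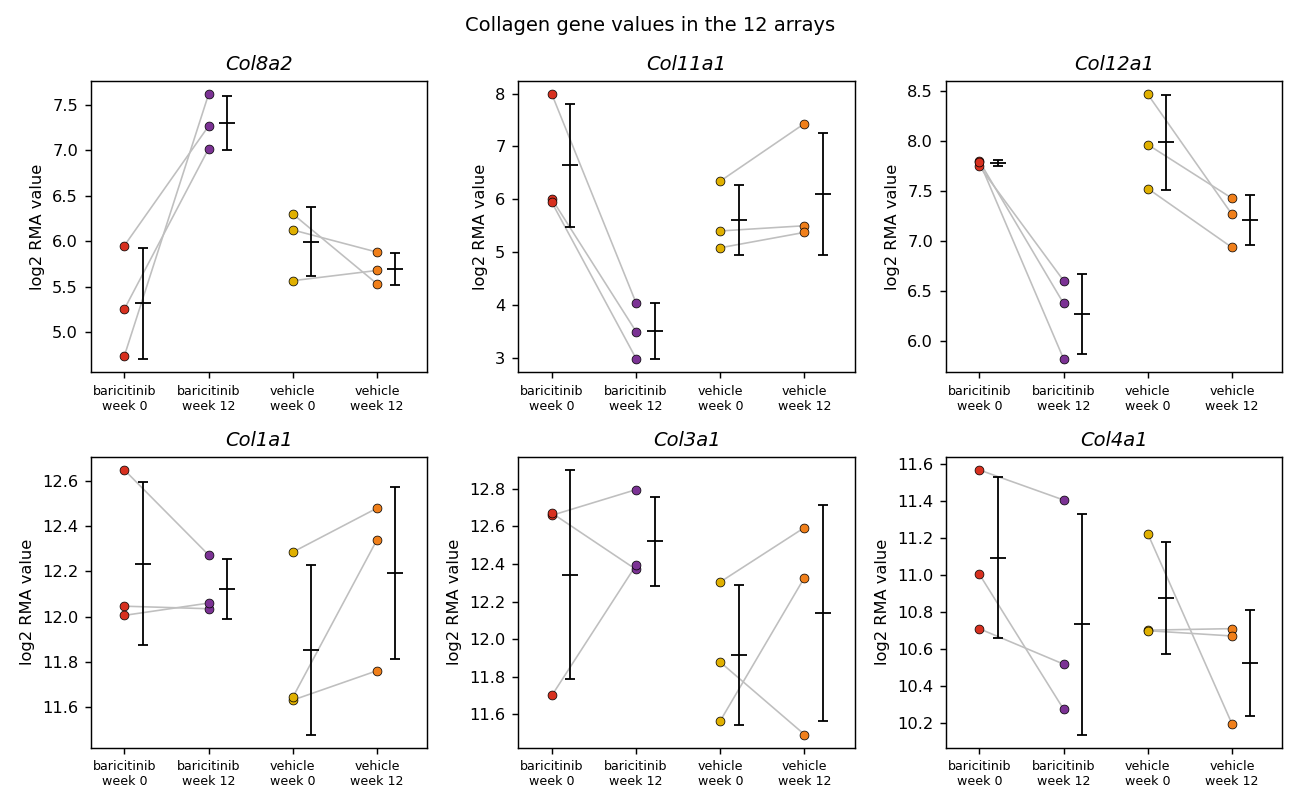
Log2 RMA values (vertical axes, with a separate range for each gene) of 6 collagen genes in the 4 groups, 1 point per array, with grey lines joining the arrays of 1 mouse and black bars giving the mean and SD of 3 arrays. Col8a2 after baricitinib lies at 7.02 to 7.61, above all other arrays, and Col11a1 at 2.99 to 4.04, below all others, while the groups overlap for Col1a1, Col3a1 and Col4a1.

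Promoter sequence is shown for the genes called in each direction and, as an abundant fibrillar gene that was not called, for Col1a2. The bases just before the annotated gene start were taken from RefSeq (GRCm38.p6), 5′ to 3′ on the coding strand. Capitals mark the letters CCAAT of the CCAAT box, the letters GGGCGG of the GC box and the letters TATAAA of the TATA box on either strand, and matches that overlap are counted separately. The windows are chr4:126286644-126286793 for Col8a2, chr3:114030390-114030478 for Col11a1 and chr6:4505468-4505617 for Col1a2, all on the plus strand. That of Col11a1 was shortened to the 89 bases before the gene, and the other windows have 150.
Col8a2: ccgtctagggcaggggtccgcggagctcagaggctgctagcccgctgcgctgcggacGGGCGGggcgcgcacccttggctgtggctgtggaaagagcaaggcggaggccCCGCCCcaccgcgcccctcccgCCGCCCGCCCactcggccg
Col11a1: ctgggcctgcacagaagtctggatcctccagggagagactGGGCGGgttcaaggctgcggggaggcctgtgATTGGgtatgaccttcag
Col1a2: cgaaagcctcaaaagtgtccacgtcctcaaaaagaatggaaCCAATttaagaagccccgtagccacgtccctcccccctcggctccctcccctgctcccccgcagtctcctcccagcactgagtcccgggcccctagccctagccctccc
Col8a2 holds 4 matches to the GC box, Col11a1 holds 1 GC box and 1 CCAAT box, and Col1a2 holds 1 CCAAT box. Windows were found for 32 of the 41 genes, 35 windows in all. Over 150 bases the GC box was in 18 of the 35 windows (51.4%) and in 28.6% of 32851 windows of the genome, the CCAAT box in 7 (20%) and in 24.5%, and the TATA box in 3 (8.57%) and in 7.57%. A match is a run of letters and no evidence of binding. Col12a1 had no window.

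The remaining fibrillar collagens did not pass in any comparison. Type I and type III collagen, the bulk of dermal fibrils, had small differences with baricitinib. Col1a1 was 12.65, 12.05 and 12.01 at week 0 and 12.27, 12.04 and 12.06 at week 12. Its log2 difference was -0.11, with a 95% interval of -0.73 to 0.50. Col1a2, the other chain of type I, was 12.92, 12.02 and 11.59 at week 0 and 12.50, 12.45 and 12.18 at week 12. Its interval of -0.57 to 0.98 also spanned 0. Col3a1 was 12.66, 12.67 and 11.70 at week 0 and 12.80, 12.37 and 12.39 at week 12, with an interval of -0.60 to 0.95. These intervals leave room for a rise of somewhat under 2-fold in Col1a2 and Col3a1 and for smaller falls. For Col1a1 the interval leaves room for a smaller change in either direction. No difference was thus detectable with 3 mice, and a stable level was not shown.

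Type V collagen, which starts fibrils together with type I, had wider differences. Col5a1 was 10.40, 9.18 and 8.50 at week 0 and 9.09, 8.43 and 7.92 after baricitinib, while in vehicle mice it was 8.21, 8.63 and 9.70 at week 0 and 8.60, 9.98 and 10.07 at week 12. It was lower in each baricitinib mouse and higher in each vehicle mouse, but the groups overlapped. Col5a2 had log2 differences of -0.85 with baricitinib and 0.33 with vehicle, again the same way in all 3 mice of each treatment. Col5a3 had differences of 0.23 and 0.53. The limma adjusted p of the difference between the 2 changes was 0.840 for Col5a1, 0.890 for Col5a2 and 0.984 for Col5a3.

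Of the other members of the class, Col2a1 and Col11a2 were below the array median in all 12 arrays. Col2a1, the main cartilage collagen, had a mean of 3.96 and log2 differences of 0.11 with baricitinib and 0.58 with vehicle. Col11a2, a partner chain of Col11a1, had a mean of 3.88 and differences of -0.09 and 0.23. Col24a1 ranged from 3.22 to 6.76 over the arrays, with differences of -0.85 and 0.30, and Col27a1 from 5.96 to 7.97, with -0.15 and 0.27.

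Type IV collagens did not pass in any comparison either. Col4a1 and Col4a2, whose chains form the network found in nearly all basement membranes, had log2 differences of -0.36 and -0.29 with baricitinib and -0.35 and -0.11 with vehicle. Col4a1 was 10.71 to 11.57 at week 0 and 10.28 to 11.40 after baricitinib, with overlap between the groups. Col4a5 and Col4a6, chains of the network under the epidermis, had differences of -0.22 and 0.30 with baricitinib and -0.69 and 0.13 with vehicle. At an unadjusted p under 0.05, Col4a5 was 1 of 2 collagen genes with vehicle, along with Col12a1.

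Col4a3 and Col4a4 are chains best known from kidney and other specialised basement membranes. Col4a3 was 4.38, 4.03 and 4.17 at week 0 and 5.29, 5.24 and 4.28 after baricitinib, and 4.05, 5.02 and 4.52 at week 0 and 3.79, 4.23 and 4.11 at week 12 with vehicle. Its log2 differences were 0.74 (limma adjusted p = 0.370) and -0.49, and the adjusted p of their difference was 0.651. The gene was above the array median in 1 array only. Col4a4 had differences of 0.08 and -0.23 by its brightest probe set. A dimmer probe set of Col4a4 had a difference of 2.00 with baricitinib (limma adjusted p = 0.0554), so that the probe sets of this gene disagreed.

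**Figure D2:**
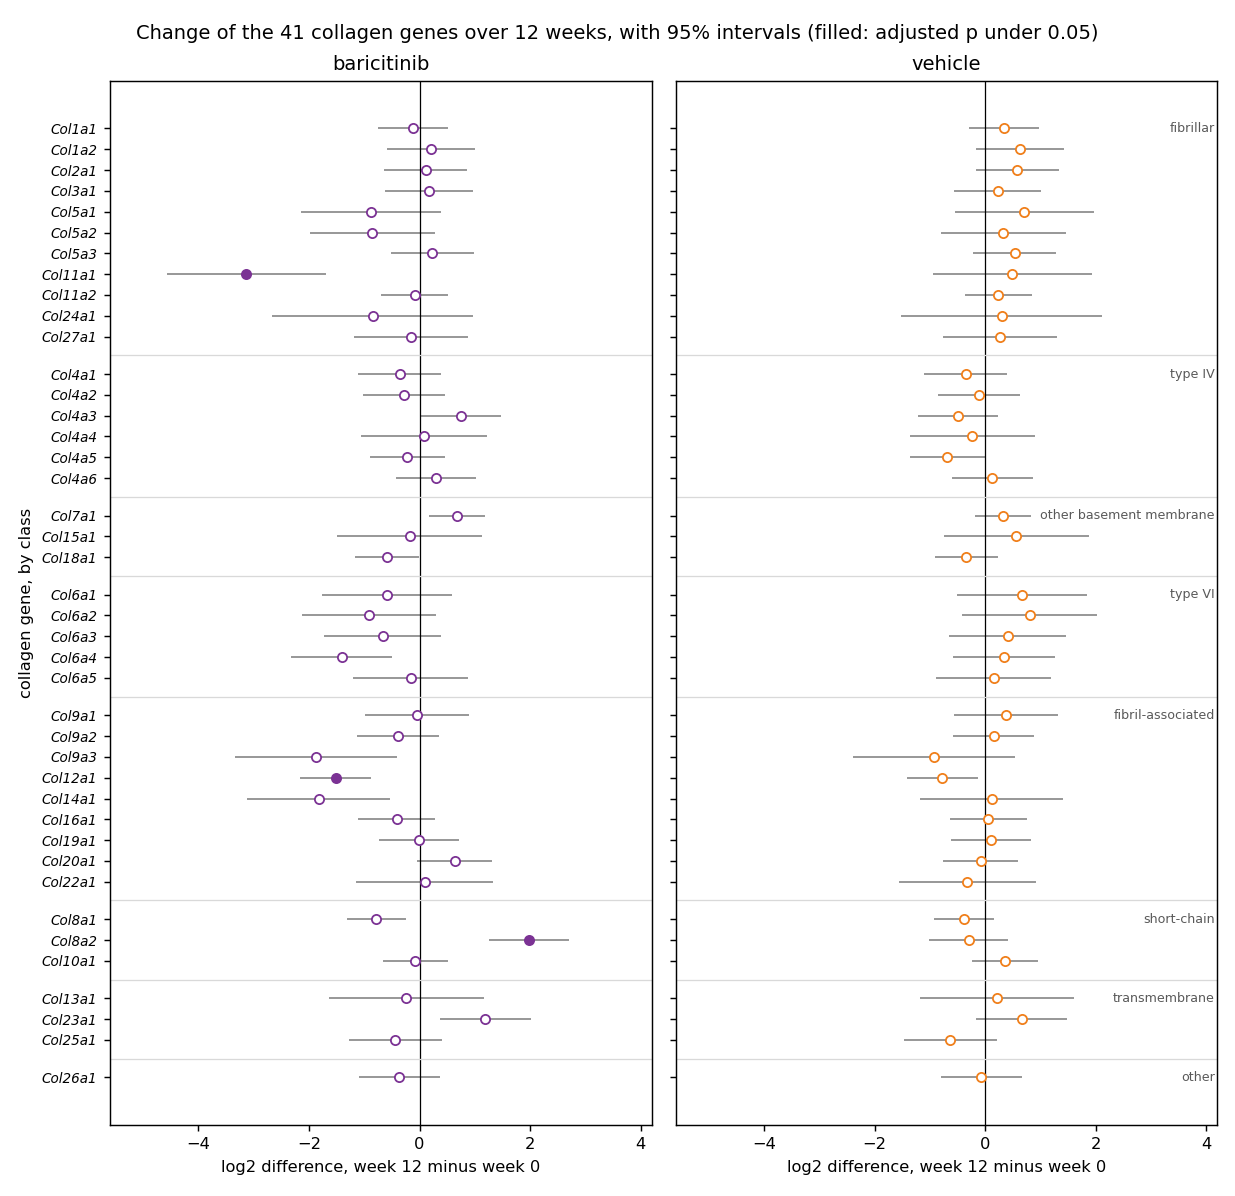
Log2 difference between week 12 and week 0 (horizontal axis) for the 41 collagen genes by class, with baricitinib on the left and vehicle on the right. Bars are 95% intervals of the limma fit with 3 arrays in each group, and the filled points, Col11a1, Col12a1 and Col8a2 with baricitinib, are those with an adjusted p under 0.05.

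As classes, fibrillar and type IV collagens were set side by side by their medians, which are descriptions with no test. With baricitinib the median log2 difference was -0.11 over the 11 fibrillar genes, of which 4 were above 0, and -0.07 over the 6 type IV genes, of which 3 were above 0. With vehicle it was 0.34 for fibrillar genes, with 11 of 11 above 0, and -0.29 for type IV genes, with 1 of 6 above 0. The median over all probe sets was 0.0026 with baricitinib and 0.024 with vehicle. The fibrillar median thus lay 0.04 below that of type IV with baricitinib and 0.63 above it with vehicle. With Col7a1, Col15a1 and Col18a1 added to type IV, the basement membrane medians were -0.18 and -0.23.

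Single arrays differed within the groups. The mean deviation of the fibrillar genes from their own 12-array means was 0.81, 0.02 and -0.24 in replicates 1, 2 and 3 at baricitinib week 0 and 0.20, -0.35 and -0.73 at week 12. It was -0.55, -0.30 and 0.36 at vehicle week 0 and -0.30, 0.41 and 0.66 at week 12. The groups overlapped in both treatments, although every baricitinib mouse was lower and every vehicle mouse was higher at week 12. The 3 lowest fibrillar levels were those of the 3 arrays with a low 3' to 5' index. These were replicates 3 and 2 of baricitinib week 12 (-0.73 and -0.35) and replicate 1 of vehicle week 0 (-0.55). Col11a1 carried much of the fall in the mean: without it the mean changes were -0.27, -0.15 and -0.24 in the baricitinib mice and 0.27, 0.75 and 0.23 in the vehicle mice. Type IV genes had deviations of 0.10, 0.00 and -0.15 and then 0.20, 0.18 and -0.29 with baricitinib, and of -0.13, 0.25 and 0.30 and then -0.44, -0.07 and 0.05 with vehicle, a narrower spread. Fibrillar minus type IV averaged 0.21 ± 0.44 and -0.32 ± 0.28 at weeks 0 and 12 with baricitinib, and -0.30 ± 0.32 and 0.41 ± 0.24 with vehicle (SD, n = 3). At week 0, before treatment, 10 of 11 fibrillar genes were higher in the baricitinib mice, with a median log2 difference of 0.39 against -0.31 for type IV and with no call for any gene in limma.

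Several settings move these class values. In a fit that took the 3' to 5' index as covariate, the baricitinib median of the fibrillar genes turned to 0.14, with 8 of 11 above 0, and that of type IV to 0.10. Without replicate 1 of baricitinib week 0 the fibrillar median was 0.10. The count of 11 of 11 with vehicle was also found under cyclic loess, median centring, the mean of the probe sets and the index covariate, but it fell to 9 without replicate 1 of vehicle week 0 and to 8 without replicate 3 of vehicle week 12. When single arrays were left out, the vehicle median of the fibrillar genes was 0.19 to 0.73 (0.73 without replicate 1 and 0.19 without replicate 3 of vehicle week 12, and 0.62 without replicate 3 of vehicle week 0). Their week 0 median was 0.14 without replicate 1 and 0.73 without replicate 3 of baricitinib week 0, 0.20 without replicate 1 of vehicle week 0 and 0.61 without replicate 3 of that group.

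**Figure D3:**
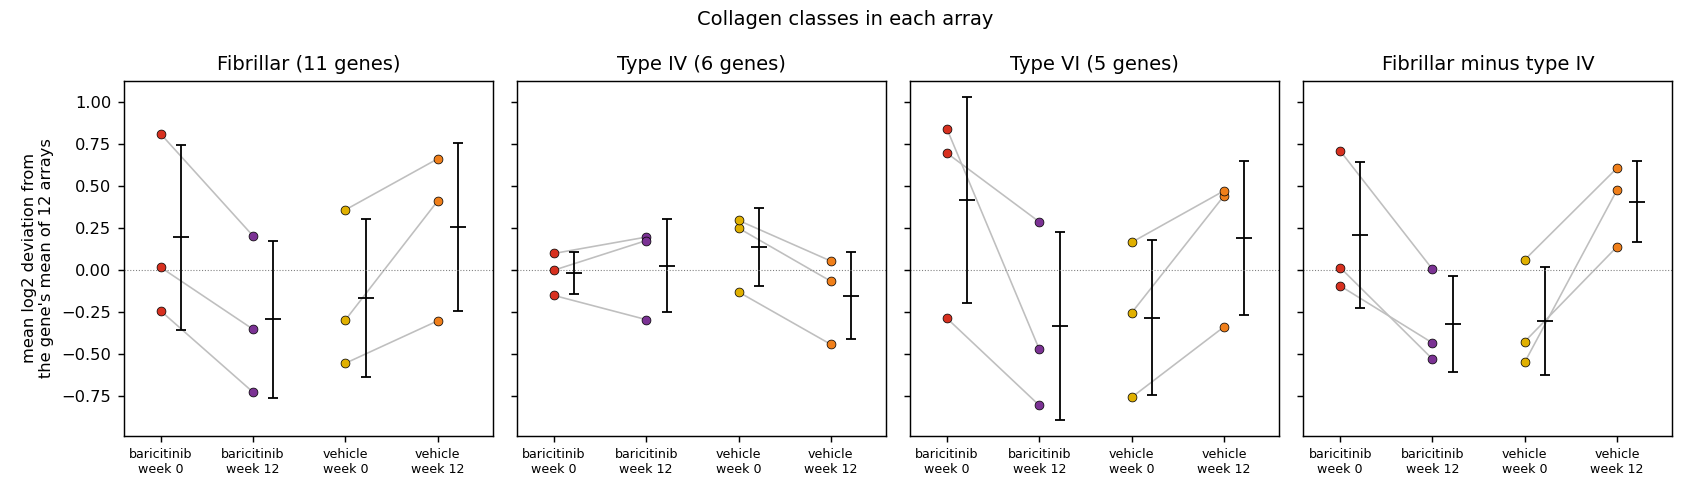
Mean log2 deviation of the members of a class from each gene's mean of 12 arrays (vertical axis), for fibrillar, type IV and type VI collagens and for fibrillar minus type IV, with 1 point per array, grey lines joining the arrays of 1 mouse, and bars for the mean and SD of 3 arrays. Fibrillar minus type IV is lower at week 12 in the 3 baricitinib mice and higher in the 3 vehicle mice, while type IV itself stays between -0.44 and 0.30 in all arrays.

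Type VI collagen forms beaded microfilaments close to cells. Its measured genes did not pass in any comparison, but the 5 shared a direction within each treatment. The median log2 difference was -0.66 with baricitinib, with 0 of 5 above 0, and 0.41 with vehicle, with 5 of 5 above 0. Before treatment all 5 were already higher in baricitinib than in vehicle mice, with a median log2 difference of 0.66 and 0 called. The class levels overlapped between weeks, at -0.29 to 0.84 and then -0.80 to 0.29 with baricitinib. With vehicle they were -0.76 to 0.17 and then -0.34 to 0.47. Col6a1 was 12.61, 12.04 and 11.12 at week 0 and 12.05, 11.25 and 10.72 after baricitinib, and 10.37, 11.49 and 12.06 at week 0 and 11.24, 12.27 and 12.41 at week 12 with vehicle. Col6a2 had differences of -0.91 and 0.80, and Col6a3 of -0.66 and 0.41. These 3 genes, whose chains assemble into the main form of type VI, were lower in each baricitinib mouse and higher in each vehicle mouse.

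Type VI levels were also read beside the integrity index. The mean deviation of the 5 genes was -0.47 and -0.80 in replicates 2 and 3 of baricitinib week 12 and -0.76 in replicate 1 of vehicle week 0, the 3 arrays with a low index. It was between -0.34 and 0.84 in the other 9. With the index as a covariate the baricitinib median of type VI was -0.16, with 2 of 5 above 0. That median was -0.35 without replicate 1 and -1.02 without replicate 3 of baricitinib week 0, and -0.40 without replicate 3 of baricitinib week 12. The vehicle median was 0.20 without replicate 1 and 0.82 without replicate 3 of vehicle week 0, and 0.79 without replicate 1 and 0.25 without replicate 2 of vehicle week 12. Col6a4 was 4.37, 5.83 and 4.21 at week 0 and 3.39 in each of the 3 arrays after baricitinib (limma adjusted p = 0.143), and its level was above the array median in 1 array only.

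Of the 9 fibril-associated collagens, Col12a1 was called. Col14a1, which encodes type XIV collagen on the surface of dermal fibrils, was 8.49, 7.78 and 7.10 at week 0 and 7.05, 5.41 and 5.44 after baricitinib, against 6.60, 7.27 and 8.17 and then 6.62, 7.51 and 8.27 with vehicle. The log2 difference with baricitinib was -1.82 ± 0.58 (SE, n = 3 against 3, limma adjusted p = 0.184). With the fixed replicate block the adjusted p was 0.0461, and a second probe set had a difference of -2.39 (adjusted p = 0.0769). The 2 lowest arrays were those of low index at baricitinib week 12. Col9a3, a chain of type IX collagen, was 6.74, 7.27 and 6.11 at week 0 and 4.95, 5.23 and 4.33 after baricitinib, so its groups did not overlap, but the 3 vehicle arrays at week 0 ranged from 5.22 to 7.74 and its adjusted p was 0.239. Col20a1 had a difference of 0.63 (limma adjusted p = 0.439), which became 1.03 with the index as a covariate (0.0227). The genes Col9a1, Col9a2, Col16a1, Col19a1 and Col22a1 had differences between -0.41 and 0.09.

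The other collagens of the basement membrane zone did not pass. Col7a1, the anchoring fibril collagen that ties the epidermis to the dermis, was 7.52, 7.87 and 7.55 at week 0 and 8.18, 8.24 and 8.55 after baricitinib, a log2 difference of 0.68 (limma adjusted p = 0.210) without overlap. Vehicle mice had a difference of 0.32. Col18a1, the source of endostatin, had differences of -0.59 and -0.34, and Col15a1, of vessel and muscle basement membranes, had -0.18 and 0.56. Among transmembrane collagens, Col23a1 was 6.77, 6.89 and 6.31 at week 0 and 7.88, 7.71 and 7.94 after baricitinib, a difference of 1.19 (limma adjusted p = 0.169). With the index as a covariate this became 1.61 (adjusted p = 0.0168). The vehicle difference of Col23a1 was 0.66.

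The remaining comparisons gave no call among the collagens in limma. With vehicle, week 12 against week 0 called 0 of 41 genes and 0% of all probe sets, and 2 genes were under an unadjusted p of 0.05, beside 2.46% of all probe sets. Groups did not overlap for 4 of 41 genes, beside 8.27% of all probe sets. Baricitinib against vehicle at week 12 called 0 of 41, beside 0.58% of all probe sets (0.151% higher and 0.429% lower), and 6 genes were under an unadjusted p of 0.05, beside 10.9%. There Col8a2 was 3.03-fold higher with baricitinib (log2 difference 1.60, limma adjusted p = 0.0558), and Col11a1 had a difference of -2.59 (adjusted p = 0.120). Groups did not overlap for 7 of 41 genes (17.1%), as for 17.1% of all probe sets. At week 0 the 2 treatments gave 0 of 41 calls and 0% of all probe sets, with 1 gene, Col6a4, under an unadjusted p of 0.05, beside 1.13%. Groups did not overlap for 1 of 41, beside 5% of all probe sets. These comparisons share arrays with each other and are not independent.

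The change with baricitinib minus the change with vehicle called 0 of 41 genes and 0% of all probe sets in limma. At an unadjusted p under 0.05 there were 6 genes, beside 6.27% of all probe sets. The lowest adjusted p was 0.206, for Col8a2, with a difference of 2.28 ± 0.45 (SE). A moderated F-test for any difference among the 4 groups called 0 of 41, beside 0.562% of all probe sets, with a lowest adjusted p of 0.0513. At an unadjusted p under 0.05 it gave 9 genes, beside 8.93%. In 8 of 41 genes all 3 baricitinib mice went one way and all 3 vehicle mice the other, which is 19.5%, beside 2.95% of all probe sets. These were Col5a1, Col5a2, Col6a1, Col6a2, Col6a3, Col11a1 and Col14a1, lower with baricitinib, and Col4a3, higher with baricitinib. Members of a class or a gene pair are not independent, and for none of the 8 did the difference of the changes pass.

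**Figure D4:**
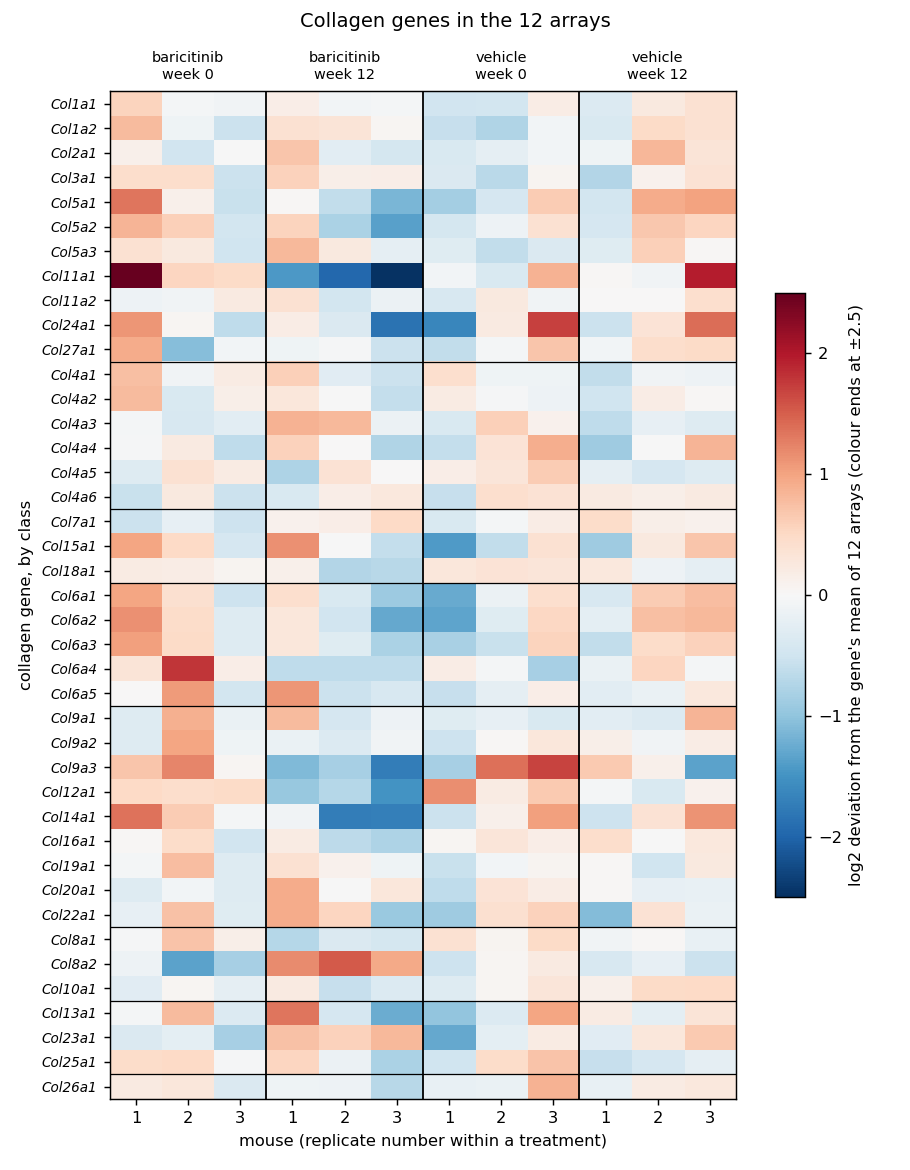
Log2 deviation of each of the 41 collagen genes (rows, by class) from its mean of 12 arrays in each array (columns, by group and mouse), in red where higher and in blue where lower, with the colour scale ending at 2.5 either side of 0. Col8a2 is red in the 3 arrays of baricitinib week 12 and Col11a1 and Col12a1 are blue there, while Col5a1 is bluest in replicate 3 of that group. The mean of the type VI rows is low in that array (-0.80) and in replicate 1 of vehicle week 0 (-0.76).

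In the RefSeq order of genes (GRCm38.p6), 7 pairs of collagen genes are neighbours. Col6a2 and Col6a1 on chromosome 10 had log2 differences of -0.91 and -0.58 with baricitinib, and Col4a1 and Col4a2 on chromosome 8 had -0.36 and -0.29. Col3a1 and Col5a2 on chromosome 1 had 0.18 and -0.85, and Col6a5 and Col6a4 on chromosome 9 had -0.16 and -1.41. On the X chromosome Col4a6 and Col4a5 had 0.30 and -0.22. The 2 pairs left, Col4a4 with Col4a3 and Col9a1 with Col19a1, are also on chromosome 1.

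Genes that make, bind and break down collagen were read from lists beside the members, in the comparison of baricitinib week 12 with week 0. Of 18 measured genes of collagen synthesis and secretion, 1 was called higher and 0 lower, with a median log2 difference of 0.10. This was P3h4, a partner of prolyl and lysyl hydroxylation in the endoplasmic reticulum. It was 7.14, 7.07 and 6.97 at week 0 and 8.15, 8.04 and 8.65 after baricitinib, with no overlap (log2 difference 1.22, limma adjusted p = 0.0231). In vehicle mice it was 6.98, 7.05 and 6.86 and then 7.43, 7.46 and 7.74. Of 11 genes of procollagen processing and crosslinking 0 were called, 1 was higher and 3 were lower at an unadjusted p under 0.05, and the median was -0.15.

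Among 17 basement membrane partners, 2 were called higher and 0 lower, with a median of 0.15. With vehicle the median of this list was also 0.15, with 0 called. Lama4, a laminin chain of vessel basement membranes, was 8.24, 7.36 and 7.54 at week 0 and 8.93, 9.33 and 8.85 after baricitinib (log2 difference 1.32, limma adjusted p = 0.0357). Smoc2, a calcium-binding matrix protein of the basement membrane, was 9.09, 9.29 and 8.66 and then 10.21, 10.10 and 10.10 (1.12, limma adjusted p = 0.0422). The groups did not overlap for either gene. In limma 0 genes were called among 24 collagen-binding matrix proteins, 16 genes of collagen breakdown, 7 collagen receptors and 13 genes of TGF-beta signalling. At an unadjusted p under 0.05 there were 7 (4 higher), 7 (3 higher), 1 (lower) and 4 (2 higher) of them.

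Marker genes of cells that make collagen, and of other cells of skin, were read in the same comparison. Of 13 fibroblast markers other than collagens, 9 were above 0 with baricitinib, 0 were called in limma and 3 were higher at an unadjusted p under 0.05, with a median log2 difference of 0.32. Their mean deviation was -0.34 to 0.30 at week 0 and -0.01 to 0.70 at week 12. Of 8 smooth muscle and pericyte markers, 8 were above 0 and 0 were called, with a median of 0.81 and 4 higher at an unadjusted p under 0.05. Of 8 adipocyte markers, 8 were above 0, with a median of 1.88 and 1 call, Cidec, a lipid droplet protein (2.76, limma adjusted p = 0.0176). Of 12 leukocyte markers, 3 were called lower, the T cell gene Cd8a and the granzymes Gzma and Gzmb, and the list had a mean deviation of 0.31 to 0.51 at week 0 and -1.38 to -0.60 after baricitinib. Of 10 epidermal keratinocyte markers, 12 skeletal muscle markers and 5 Schwann cell markers 0 were called, with medians of 0.14, -0.035 and 0.65. With vehicle the medians over 12 weeks were -0.033 for fibroblasts, -0.028 for smooth muscle and pericytes and 0.54 for adipocytes (7 of 8 above 0). For leukocytes the median was -0.35 with vehicle and -0.44 with baricitinib. The vehicle medians were 0.22 for keratinocytes, -0.086 for skeletal muscle and 0.44 for Schwann cells (5 of 5 above 0). What these cells contribute to the collagen values was not tested.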

How the data were processed

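RNA of whole skin was amplified (NuGEN Ovation V2) and hybridised to Affymetrix mouse genome arrays. The authors normalised the experiment by RMA, version not given in the sources used here, and the deposited log2 values were used without further normalisation. After 64 control probe sets were left out, limma 3.58.1 in R 4.3.3 was fitted to 45037 probe sets, with a mean for each of 4 groups and no block (prior degrees of freedom 3.54, residual 8). Two-sided p-values were adjusted across the whole table (Benjamini-Hochberg), with a threshold of 0.05. Of the probe sets, 34945 had 1 symbol in the platform annotation, 932 had several and 9160 had none.

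The sample descriptions give the same animal number at both weeks, so numbers pair the samples within a treatment. Over all probe sets, the correlations of paired deviations were -0.36, -0.51 and 0.47 for baricitinib and 0.44, -0.13 and 0.49 for vehicle. Over the collagen genes they were 0.29, -0.19 and 0.48 for baricitinib and 0.18, 0.14 and 0.38 for vehicle. The members, the classes and 227 entries of other lists, of which 213 were measured and 5 repeat a gene, were chosen with earlier results of these data known. Genes named are all fibrillar and type IV members, those called, and the 3 with the largest change each way in a comparison. Others were named after their values were seen. From other lists, called genes and the brightest were named. Arrays give no read depth, and the number of arrays limits the precision. The pipeline was also run on simulated data with changes of known size. The simulated noise was independent between arrays and probe sets, with no mouse pairs. That run therefore does not bear on pairing, array quality or RNA integrity. Figures were drawn with matplotlib 3.10.9 in Python 3.11.15.

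Alternatives tried were dropping dim probe sets, a prior variance that follows the level, a fixed or a random replicate block for the mouse, fitting just the 2 groups in question, median centring, cyclic loess, averaging the probe sets of a gene, the 3' to 5' index as covariate, each array left out in turn, and the 2 arrays of lowest correlation left out. The fibrillar class without Col11a1 was added after seeing the data.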

Additional observations from a re-analysis of the deposited data

Results flagged for a closer look

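For 3 class levels, all baricitinib mice moved one way from week 0 to week 12 and all vehicle mice the other way. The difference between the treatments was not tested for any of them, and the 3 share genes and arrays. The mean level of the 11 fibrillar collagens changed by -0.61, -0.37 and -0.48 on the log2 scale in the baricitinib mice and by 0.25, 0.71 and 0.30 in the vehicle mice, and the baricitinib mean lay -0.91 from the vehicle mean. Col11a1 carried much of the baricitinib fall: in a check chosen after seeing the data, the other 10 genes changed by -0.27, -0.15 and -0.24 with baricitinib and by 0.27, 0.75 and 0.23 with vehicle, a difference of -0.64, and the median over the 11 genes was only -0.11 with baricitinib. Fibrillar minus type IV changed by -0.70, -0.54 and -0.34 with baricitinib and by 0.56, 1.02 and 0.55 with vehicle, a difference of -1.24, and without Col11a1 it changed by -0.37, -0.33 and -0.092 with baricitinib and by 0.58, 1.07 and 0.47 with vehicle, a difference of -0.97. The mean level of the 5 type VI collagens changed by -0.41, -1.31 and -0.52 with baricitinib and by 0.42, 0.70 and 0.31 with vehicle, a difference of -1.22. At week 0, with 0 of 41 genes called in limma and overlapping arrays, fibrillar genes had a median log2 difference of 0.39 and type VI genes of 0.66 between baricitinib and vehicle mice. The 3 arrays of low 3' to 5' index, which are those of more intact RNA by this index, belong to 2 of these groups, baricitinib week 12 and vehicle week 0. The part of RNA integrity in these values was not tested beyond the covariate fit.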

How the results depend on the processing

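Of the 26 differences of single collagen genes at an unadjusted p under 0.05, over the 5 comparisons, 0 changed direction under an alternative. The 26 were picked by their p in these same arrays, which the alternatives refit, so a kept direction is no separate support. Of the values of the 26 differences under the alternatives, 518 kept their side of the threshold while 24 lost a call and 10 gained one. Only the 3 differences called in the main fit, those of Col8a2, Col11a1 and Col12a1 with baricitinib, could lose a call. All 24 losses are therefore theirs, and most of the 518 values belong to differences that were not called in the main fit. Of all 205 differences of the 41 genes, 91 changed sign under at least 1 alternative. With the 3' to 5' index as covariate baricitinib week 12 against week 0 called 4 collagens, Col8a2, Col12a1, Col20a1 and Col23a1, and 1763 probe sets in all in place of 557. When the mouse was a fixed replicate block, baricitinib week 12 against week 0 called 2 collagens, Col11a1 and Col14a1 (limma adjusted p = 0.0461), and 158 probe sets in all. The random replicate block called Col8a2, Col11a1 and Col12a1, as the fit without a block did. With only the 2 groups compared that comparison called 0, and without the 2 arrays of lowest correlation it called 1, Col8a2. Leaving out single arrays gave 0 to 3 calls there. With 0 calls when replicate 3 of baricitinib week 0 or replicate 2 of baricitinib week 12 was left out, 70 and 121 probe sets were called in all. Baricitinib against vehicle at week 12 called 1, Col8a2, with the index covariate, cyclic loess, the dim filter, the mean of probe sets, or without the 2 arrays of lowest correlation, and 0 to 1 without single arrays. The F-test called 3 with the index covariate, 2 with cyclic loess or the dim filter, 1 with the mean of probe sets or median centring, and 0 to 1 without single arrays. For the change with baricitinib minus that with vehicle, the fibrillar median was -0.99 without the 2 arrays of lowest correlation, against -0.45, and the type IV median was 0.51 with the mean of probe sets, against 0.24, and 0.029 to 0.53 without single arrays (0.53 without replicate 1 of vehicle week 0). The type IV median with vehicle was -0.47 to -0.049 without single arrays (-0.049 without replicate 1 of vehicle week 12), and that between treatments at week 0 was -0.48 to -0.074 (-0.074 without replicate 3 of vehicle week 0). The causes were not tested. The F-test was not run with the fixed replicate block, which holds the treatment within the mice, and comparisons between treatments have no fit with it. The median of all probe sets moved by under 0.1 with another scaling. Genes at or below the array median have differences whose size is less certain than for brighter genes.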
